A study of Drosophila melanogaster with 18 samples.

Results

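The genes described here are 53 protein-coding genes of Drosophila melanogaster that have only a numbered CG symbol and whose transcripts were much lower in control pupal wings at 44 h than at 24 h after puparium formation. They were chosen by 2 thresholds on the control libraries. The mean control level at 24 h had to be at least 5 cRPKM, the authors' value of reads scaled by library total and an effective gene length. The ratio of the 24 h mean to the 44 h mean, each with 0.5 added, had to be at least 6. Of 5831 CG genes among 13731 genes with values, 1912 reached the level, and 53 of these (2.77%) also reached the ratio, against 3.4% of the 6648 genes of any name at that level. The fall in control wings is therefore the choice itself, and its values are given as a description with no test.

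Poly(A) RNA from dissected pupal wings was sequenced, with at least 40 wings in each library and 3 libraries in each of 6 groups. By the labels, E93RNAi+brRNAi wings carried the driver rn-Gal4 with UAS-brRNAi and UAS-E93RNAi, E93RNAi wings carried rn-Gal4 with UAS-E93RNAi, and control wings carried rn-Gal4 alone, so that every group shared the driver. Each genotype was sampled at 24 h and at 44 h, and flies were kept at 25 °C. The driver follows rotund, a gene of part of the wing, and cells outside its pattern were not separated from the rest. The design text asks how far the effect of E93 runs through repression of br. Wings with br RNAi but no E93 RNAi were not analysed here.

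E93, the product of Eip93F, is an ecdysone-induced transcription factor that promotes adult differentiation. It represses broad (br), whose zinc finger proteins specify the pupal stage. Over this part of pupal life the wing epithelium ends its divisions and passes from the pupal cuticle to building hairs and the adult cuticle. A CG number is the name a predicted gene keeps until it is given another, so the 53 genes are not all without a known kind of product. By homology, CG9747 belongs to the acyl-CoA desaturases, CG6142 to the GMC oxidoreductases, CG3097 to the zinc carboxypeptidases, CG4757 to the carboxylesterases and CG8927 to the cuticle proteins. For most of the others no role is given here.

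Library totals were between 17627937 and 22940404 counts, and all 53 genes were among the 9672 genes tested. The labels do not tell whether libraries of a group come from separate crosses, so that the p-values reflect the spread among the libraries alone, and this may be technical spread. The third library of E93RNAi at 24 h and the third of E93RNAi+brRNAi at 44 h stood apart from the others of their group, with a chi-square per gene of 17.57 to 25.47 against 2.77 to 10.28 for all other pairs within groups. The label checks were mixed. Eip93F averaged 2369 ± 40.8 CPM (TMM-scaled) in E93RNAi+brRNAi, 2066 ± 193 CPM in E93RNAi and 2077 ± 51.7 CPM in control at 24 h (SD, n = 3 each). Its transcript level was thus not shown to be lower in E93RNAi than in control at that time (adjusted p = 0.935, edgeR). At 44 h it averaged 867.1 ± 55.9 CPM in E93RNAi+brRNAi, 1156 ± 37.7 CPM in E93RNAi and 1285 ± 48.0 CPM in control, and E93RNAi again did not pass the test against control (adjusted p = 0.0522, edgeR). The feature taken as br averaged 17.96 CPM in E93RNAi+brRNAi, 95.14 CPM in E93RNAi and 14.78 CPM in control at 24 h, and 7.633, 50.22 and 1.696 CPM in the same order of genotypes at 44 h. It was lower in E93RNAi+brRNAi than in E93RNAi at both times, and at 44 h higher than in control (log2 difference 2.14 ± 0.26, adjusted p = 8.32e-07, edgeR). In E93RNAi it was higher than in control at 24 h (2.68 ± 0.13, adjusted p = 2.84e-12, edgeR) and at 44 h (4.86 ± 0.2, adjusted p = 5.51e-14, edgeR). Eip93F in E93RNAi+brRNAi was higher than in control at 24 h (0.19 ± 0.06, adjusted p = 0.0214, edgeR) and lower at 44 h (-0.57 ± 0.06, adjusted p = 1.53e-07, edgeR). Dcr-2, the RNAi nuclease, was at 140.6 CPM in E93RNAi+brRNAi, 5549 CPM in E93RNAi and 237.3 CPM in control at 24 h. Its 44 h means were 52.36 CPM in E93RNAi+brRNAi, 2202 CPM in E93RNAi and 63.04 CPM in control. The labels name no Dcr-2 transgene. Genotype names below are therefore those of the libraries' labels, and no difference below is shown to follow from a loss of E93 or br. Between E93RNAi+brRNAi and E93RNAi, the log2 differences of Dcr-2 (-5.3 at 24 h and -5.39 at 44 h), of Eip93F (0.2 and -0.41) and of br (-2.4 and -2.72) came together, and their parts cannot be told apart.

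The description "switched off" fits only some of the 53 genes. At 44 h in control wings, 19 had a mean under 1 cRPKM, 18 lay between 1 and 5 cRPKM, and 16 were still at 5 cRPKM or more. CG34247 was still at 275.59, 282.87 and 295.62 cRPKM in the 44 h control libraries, against 3709.03, 3693.48 and 3678.85 cRPKM in the 24 h ones. CG13053 was likewise at 209.33, 210.53 and 222.64 cRPKM, against 3136.05, 2904.13 and 3029.57 cRPKM at 24 h. These genes were lowered in control wings and not silent. CG13070 stood at the other end, with no count in any control library at 44 h (0 cRPKM in each), against 5.8, 4.65 and 4.72 cRPKM at 24 h. The median control level over the 53 genes was 1.27 cRPKM at 44 h and 27.72 cRPKM at 24 h. In bulk wings, fewer cells with a transcript and less transcript per cell cannot be told apart.

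A few very abundant genes made up most of the signal. The 4 genes with the highest control mean at 24 h held 77.9% to 78.4% of the summed cRPKM of the 53 genes in the control libraries of that time. CG15213 was the highest, at 29.56, 39.08 and 38.94 cRPKM in control wings at 44 h against 4946.8, 4697.08 and 4929.31 cRPKM at 24 h. Next came CG1850, at 11.86, 10.2 and 13.19 cRPKM in control wings at 44 h against 3773.09, 4255.19 and 4160.28 cRPKM at 24 h. The counts of the 53 genes were 0.061% to 0.064% of a control library at 44 h, against 2.025% to 2.128% at 24 h. In E93RNAi+brRNAi the shares were 0.118% to 0.13% at 44 h and 1.046% to 1.247% at 24 h, and in E93RNAi they were 0.106% to 0.11% and 1.212% to 1.272%. Both RNAi genotypes thus lay between the 2 control groups in every library at each time.

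Near the thresholds, the genes just inside the ratio were CG8173 (6.06), CG6425 (6.19) and CG30001 (6.25), and those just outside it were CG7720 (5.88), CG8736 (5.91) and CG8142 (5.94), each a 24 h over 44 h ratio. Just inside the level were CG13041 (5.03 cRPKM), CG13070 (5.06 cRPKM) and CG3604 (5.44 cRPKM). CG12592, at 2.63 cRPKM, was the nearest outside it.

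**Figure D1:**
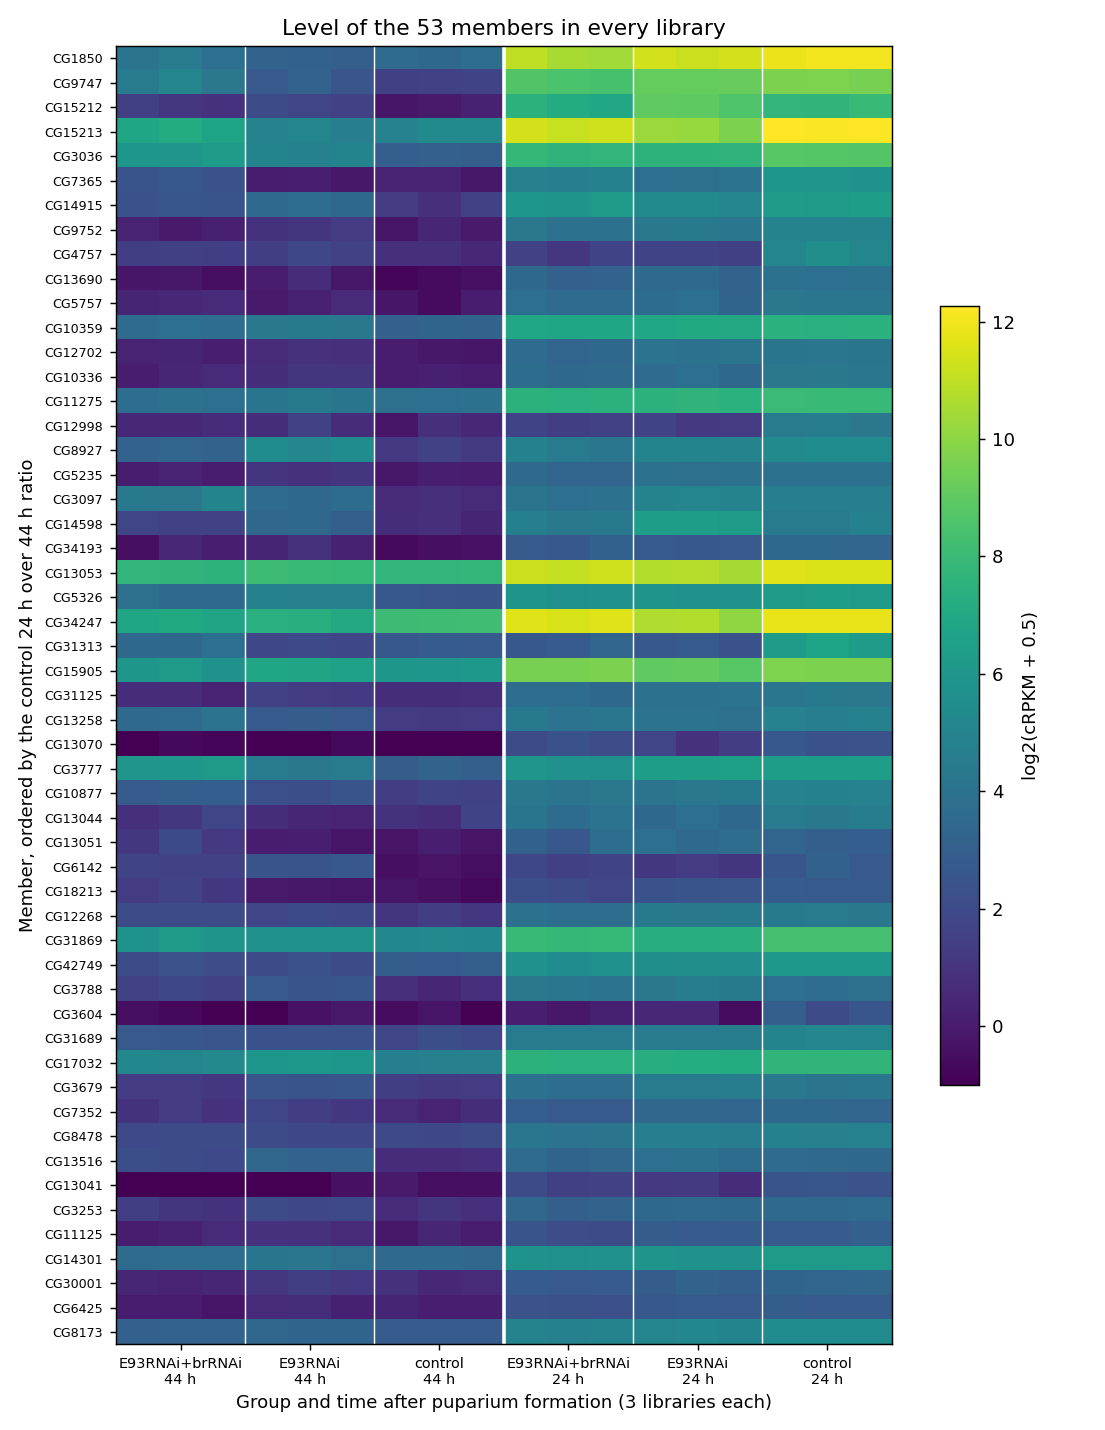
Level of the 53 genes by library, as log2(cRPKM + 0.5), with genes in rows and the 18 libraries in columns grouped by time and genotype. The medians at 44 h were 3.5 cRPKM in E93RNAi+brRNAi, 3.97 in E93RNAi and 1.27 in control, and at 24 h they were 16.55, 19.22 and 27.72 cRPKM for the same genotypes.

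The transcripts also fell with time in most of these genes in the libraries labelled E93RNAi+brRNAi and in those labelled E93RNAi, which the choice of genes did not use. Within E93RNAi+brRNAi, 46 of the 53 genes were lower at 44 h than at 24 h and 3 were higher, against 38.0% lower and 37.8% higher of all genes tested. Within E93RNAi, 48 were lower and 2 higher, against 36.4% and 38.1% of all genes. The median log2 change over the 53 genes was -2.46 in E93RNAi+brRNAi and -2.53 in E93RNAi, where the medians of all genes were 0.0 and 0.02. In size the falls were smaller than in control: the median 24 h over 44 h ratio was 5.15 in E93RNAi+brRNAi, 4.56 in E93RNAi and 11.59 in control. The choice of genes on the control ratio favours this difference from control, so that it is a description.

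The ratio was at least 6 in 23 genes within E93RNAi+brRNAi and in 22 within E93RNAi, against 2.01% and 1.7% of all genes at 5 cRPKM or more at 24 h in those genotypes. It was under 2 in 8 genes within E93RNAi+brRNAi and in 7 within E93RNAi, where 83.9% and 88.7% of all such genes lay. The 53 genes were not held to that level in these genotypes, and 9 of them were under it in E93RNAi+brRNAi and 7 in E93RNAi. Among the 44 at that level in E93RNAi+brRNAi, 21 had a ratio of at least 6 and 4 a ratio under 2, and among the 46 in E93RNAi the counts were 22 and 3. CG1850 had the highest ratio in both: it was at 16.9, 22.31 and 13.84 cRPKM at 44 h against 2025.57, 1507.01 and 1391.1 cRPKM at 24 h in E93RNAi+brRNAi, and at 8.89, 8.3 and 7.74 cRPKM against 2648.19, 2361.5 and 2719.07 cRPKM in E93RNAi. The log2 changes from 24 h to 44 h were -6.27 ± 0.17 and -8.16 ± 0.18 (SE), with adjusted p = 3.36e-18 and 3.29e-19 (edgeR's quasi-likelihood test, Benjamini-Hochberg). The 24 h and 44 h libraries of CG1850 were far apart in every genotype. CG13041 had a fitted log2 change of -6.57 ± 0.92 in E93RNAi+brRNAi, but no count there at 44 h, so that its value depends on the prior count. CG15212 fell by 6.13 on the log2 scale in E93RNAi+brRNAi and by 7.12 in E93RNAi.

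**Figure D2:**
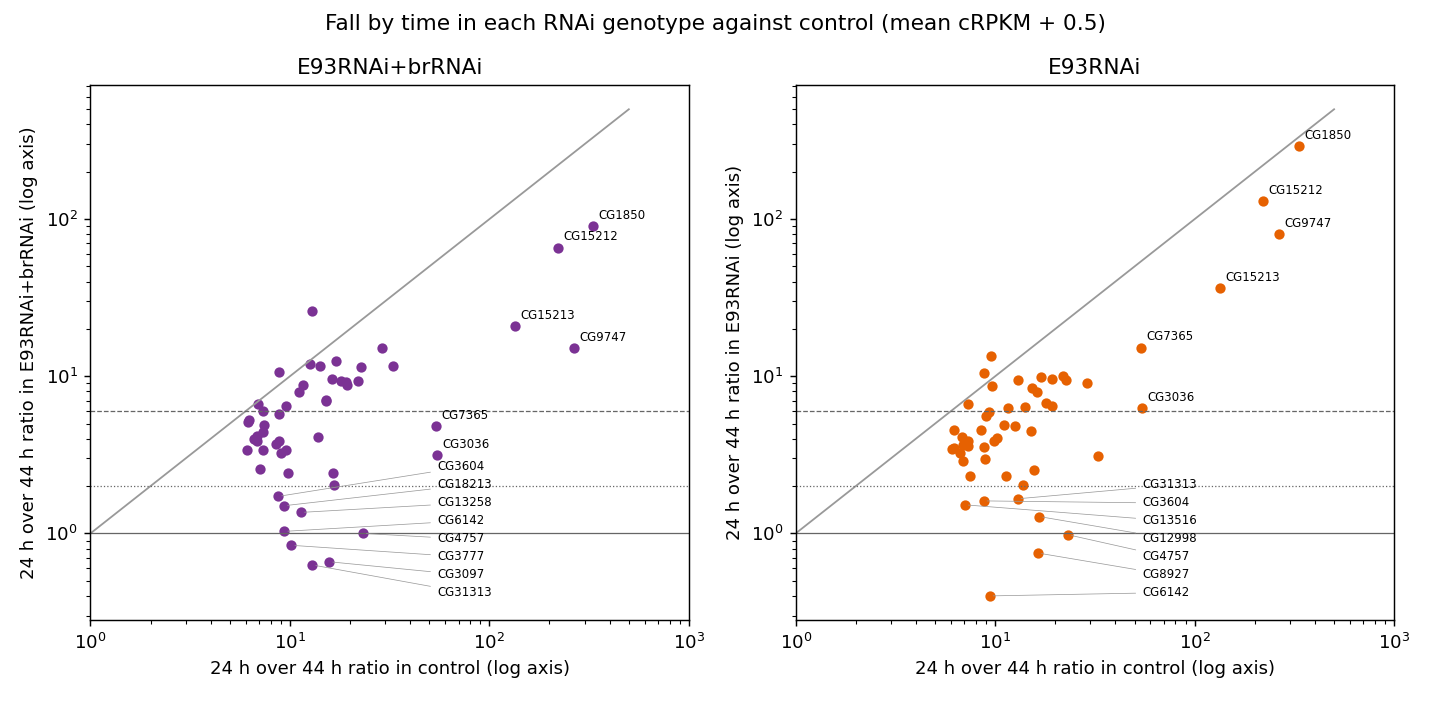
Ratio of the 24 h mean to the 44 h mean (cRPKM + 0.5, log axes) in E93RNAi+brRNAi (left panel) and E93RNAi (right panel) against the same ratio in control, a point per gene, with lines at equality, 6 (dashed), 2 (dotted) and 1. Most genes lie under the line of equality, and the named genes at the bottom, 8 in the left panel and 7 in the right, have a ratio under 2.

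A few genes did not fall, or rose, in an RNAi genotype. CG6142, the GMC oxidoreductase family gene, was at 4.99, 5.02 and 5.53 cRPKM at 44 h against 1.7, 2.0 and 1.59 cRPKM at 24 h in E93RNAi. The 44 h libraries were above every 24 h one (log2 change 1.67 ± 0.16, adjusted p = 5.64e-09, edgeR). In E93RNAi+brRNAi the same gene was at 2.81, 2.61 and 2.43 cRPKM at 44 h and 3.05, 2.38 and 2.74 cRPKM at 24 h, overlapping (log2 change 0.2 ± 0.16, adjusted p = 0.249). CG8927, the cuticle protein gene, was at 44.11, 35.26 and 43.93 cRPKM at 44 h against 30.9, 31.09 and 30.3 cRPKM at 24 h in E93RNAi, again with no overlap (log2 change 0.54 ± 0.11, adjusted p = 0.000186). In E93RNAi+brRNAi it fell, to 8.41, 9.45 and 9.02 cRPKM at 44 h against 27.8, 21.22 and 18.1 cRPKM at 24 h (log2 change -1.05 ± 0.13, adjusted p = 3.18e-07).

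The 3 genes that rose with time in E93RNAi+brRNAi were CG3097, CG3777 and CG31313. CG3097, the zinc carboxypeptidase family gene, was at 20.45, 18.41 and 31.4 cRPKM at 44 h against 16.66, 13.7 and 15.53 cRPKM at 24 h (log2 change 0.89 ± 0.14, adjusted p = 5.8e-06). In E93RNAi it was at 12.17, 10.18 and 12.64 cRPKM at 44 h and 29.8, 31.89 and 29.64 cRPKM at 24 h, a fall (log2 change -1.27 ± 0.14, adjusted p = 6.26e-08). The gene thus moved in opposite directions in the 2 genotypes. CG3777 was at 60.27, 63.21 and 71.23 cRPKM at 44 h against 60.66, 52.55 and 49.87 cRPKM at 24 h in E93RNAi+brRNAi. These cRPKM ranges overlapped, while the TMM-scaled counts did not, with a log2 change of 0.53 ± 0.08 (adjusted p = 8.96e-06, edgeR). In E93RNAi it was at 21.95, 19.25 and 22.44 cRPKM at 44 h against 85.79, 83.64 and 92.9 cRPKM at 24 h (log2 change -1.92 ± 0.09, adjusted p = 4.13e-14).

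Against control, the comparisons share the libraries that chose the genes. Since the choice required high 24 h and low 44 h control values, it favours lower values at 24 h and higher values at 44 h in the RNAi genotypes, and the counts and the differences of single genes below describe the groups and support nothing by themselves. No p-value against control is given for a single gene. At 44 h, 33 of the 53 genes were higher in E93RNAi+brRNAi than in control and 3 were lower, against 23% and 22.6% of all genes tested. In E93RNAi, 36 were higher and 5 lower than in control, against 20.6% and 18.9% of all genes. The medians were log2 changes of 0.8 and 0.96, with all-gene medians of -0.01 and 0.01. Of the 53 genes, 22 were at 5 cRPKM or more at 44 h in E93RNAi+brRNAi, 24 in E93RNAi and 16 in control.

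CG6142, CG8927, CG3097 and CG3036 were among the genes furthest above control at 44 h. CG6142 had 2.81, 2.61 and 2.43 cRPKM in E93RNAi+brRNAi and 4.99, 5.02 and 5.53 cRPKM in E93RNAi, against 0.22, 0.32 and 0.2 cRPKM in control. The log2 differences from control were 3.45 ± 0.25 in E93RNAi+brRNAi and 4.25 ± 0.23 in E93RNAi (SE), and the 3 genotypes did not overlap. CG8927 had 8.41, 9.45 and 9.02 cRPKM in E93RNAi+brRNAi and 44.11, 35.26 and 43.93 cRPKM in E93RNAi, against 1.84, 2.54 and 1.87 cRPKM in control. CG3097 had log2 differences from control of 4.45 ± 0.2 in E93RNAi+brRNAi and 3.25 ± 0.22 in E93RNAi, with control at 1.07, 1.28 and 1.01 cRPKM. CG3036, a transporter family gene related to phosphate and organic anion carriers, had 62.7, 60.49 and 78.53 cRPKM in E93RNAi+brRNAi and 31.53, 27.79 and 31.79 cRPKM in E93RNAi, against 7.23, 7.82 and 7.49 cRPKM in control. In all 4 of these genes the control libraries were the lowest.

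Other genes went below control at 44 h. CG34247 was at 115.11, 133.58 and 106.02 cRPKM in E93RNAi+brRNAi and at 168.98, 164.82 and 126.33 cRPKM in E93RNAi, below every control library (log2 differences of -1.19 ± 0.13 and -1.0 ± 0.13). CG42749 was at 3.72, 4.76 and 3.85 cRPKM in E93RNAi+brRNAi and at 3.78, 4.51 and 3.63 cRPKM in E93RNAi, against 7.05, 6.67 and 7.64 cRPKM in control. CG31313, a cystatin-like gene, split the genotypes: 10.42, 10.89 and 14.13 cRPKM in E93RNAi+brRNAi and 3.04, 3.28 and 3.02 cRPKM in E93RNAi, against 5.6, 6.86 and 6.55 cRPKM in control. It was above control in the first genotype and below it in the second.

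At 24 h, 44 of the 53 genes were lower in E93RNAi+brRNAi than in control and 1 was higher, against 15.8% lower and 14.7% higher of all genes. In E93RNAi, 38 were lower and 6 higher, against 22.3% and 21.7%. The medians were log2 changes of -0.59 and -0.51. The gene higher in E93RNAi+brRNAi was CG3788, a uridine phosphorylase family gene, at 18.67, 17.78 and 16.41 cRPKM in E93RNAi+brRNAi and 18.89, 23.67 and 19.78 cRPKM in E93RNAi, against 13.72, 12.9 and 14.66 cRPKM in control. Its log2 differences from control were 0.37 ± 0.1 and 0.57 ± 0.1, with no overlap. CG14598 was at 26.24, 19.45 and 19.85 cRPKM in E93RNAi+brRNAi and 82.81, 86.3 and 74.89 cRPKM in E93RNAi, against 20.95, 22.43 and 27.7 cRPKM in control. Its E93RNAi libraries were above all others of that time (log2 difference from control 1.75 ± 0.11).

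In 4 genes, picked out after their values were seen, the control libraries at 24 h stood alone. CG4757, the carboxylesterase family gene, was at 2.46, 1.68 and 2.73 cRPKM in E93RNAi+brRNAi and 2.7, 2.76 and 2.35 cRPKM in E93RNAi, against 32.07, 46.48 and 33.17 cRPKM in control at 24 h. Its log2 differences from control were -4.0 ± 0.16 and -3.86 ± 0.16. CG31313 was at 5.77, 6.45 and 9.69 cRPKM in E93RNAi+brRNAi and 5.58, 6.27 and 4.64 cRPKM in E93RNAi, against 79.81, 104.33 and 79.85 cRPKM in control. CG12998 was at 2.71, 2.23 and 2.52 cRPKM and at 2.75, 1.83 and 2.02 cRPKM in these genotypes, against 22.86, 23.24 and 18.89 cRPKM in control. CG3604 was at 0.58, 0.39 and 0.64 cRPKM and at 0.96, 0.9 and 0.19 cRPKM, against 7.47, 3.6 and 5.26 cRPKM in control. Both RNAi genotypes were below every control library in all 4 genes, and they overlapped each other in each. At 44 h CG4757 was at 2.22, 2.34 and 2.3 cRPKM in E93RNAi+brRNAi and 2.26, 3.2 and 2.57 cRPKM in E93RNAi, and its change with time did not pass the test in either (adjusted p = 0.264 and 0.463).

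Fat body markers were set beside this pattern. Of 12 fat body markers, 11 were matched, and Yp1 was at 0 in the control libraries. Their summed level at 24 h was 235.5 to 250.0 cRPKM in E93RNAi+brRNAi and 319.7 to 335.5 cRPKM in E93RNAi, against 327.1 to 431.7 cRPKM in control. A single marker, Obp44a, was at 7.71, 7.64 and 6.64 cRPKM in E93RNAi+brRNAi and 9.25, 8.68 and 7.25 cRPKM in E93RNAi, against 183.14, 101.97 and 111.72 cRPKM in control at 24 h. It was singled out after its values were seen. Without it, the sum of the other 10 markers was 227.9 to 243.4 cRPKM in E93RNAi+brRNAi and 312.4 to 326.3 cRPKM in E93RNAi, against 215.4 to 248.5 cRPKM in control, so that E93RNAi was then the highest. Of the 9 fat body markers tested, 5 were higher and 3 lower in E93RNAi+brRNAi than in control at 24 h, against 14.7% and 15.8% of all genes. In E93RNAi, 5 were higher and 1 lower than in control, against 21.7% and 22.3%. Most markers thus did not share the direction of Obp44a. Markers of muscle, hemocytes, neurons, glia, sensory organs, trachea and wing epithelium were also scored. Of 11 neuron markers tested at 24 h, 5 were lower and 1 higher than control in E93RNAi+brRNAi. In E93RNAi, 7 were lower and 3 higher. Of 15 muscle markers, 4 were lower and 1 higher in E93RNAi+brRNAi, and 3 lower and 9 higher in E93RNAi. The shares of all genes are those just given. Values of the other lists are not given here. The part of other tissues in these differences was not tested.

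**Figure D3:**
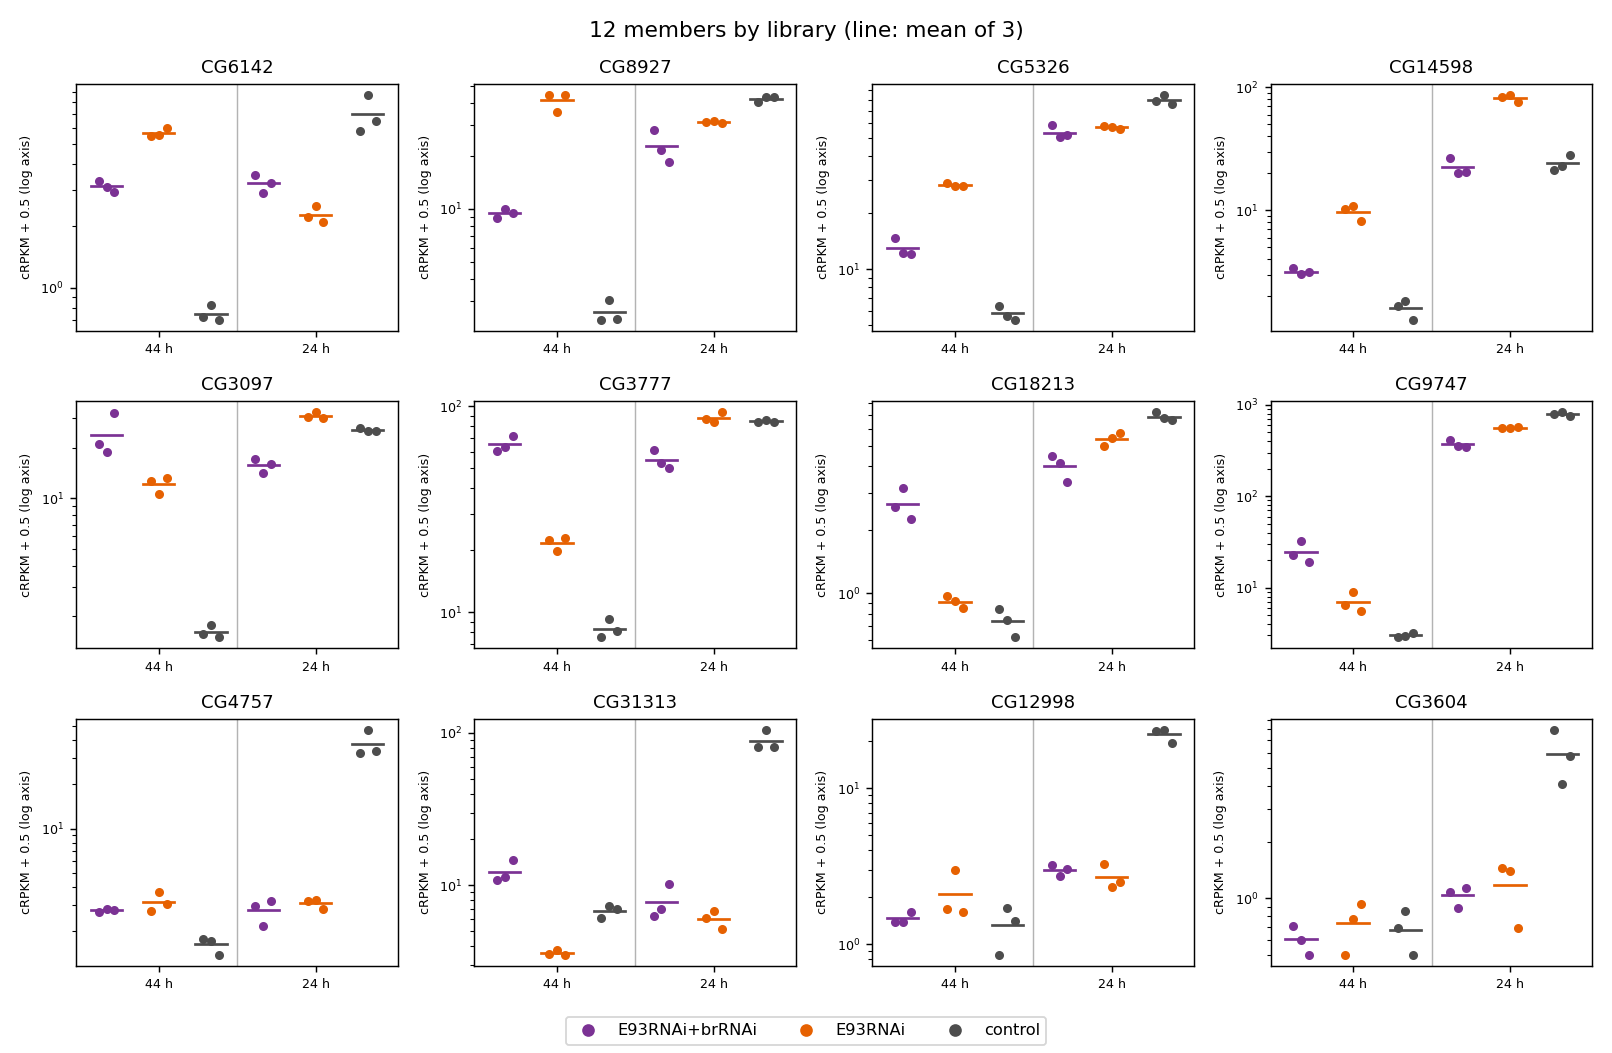
Level of 12 genes by library (cRPKM + 0.5, log axis, line at the mean of 3), with 44 h left and 24 h right in each panel and E93RNAi+brRNAi, E93RNAi and control from left to right. CG4757, CG31313, CG12998 and CG3604 are high only in the control libraries at 24 h, while CG6142 and CG8927 have their highest 44 h values in E93RNAi.

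The libraries labelled E93RNAi+brRNAi and those labelled E93RNAi differed in individual genes in both directions, and this comparison did not use the control libraries. It carries the differences in Dcr-2 and Eip93F given above as well as that in br. At 44 h, 17 of the 53 genes were higher in E93RNAi+brRNAi than in E93RNAi and 21 were lower, against 24.9% and 23.9% of all genes tested. Both shares of the 53 genes were above those of all genes, the lower side by more. The median log2 difference was -0.38, with -0.01 over all genes. With log2 differences of at least 1, the counts were 12 higher and 8 lower, against 7.14% and 3.68% of all genes.

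The largest difference at 44 h was in CG7365, a phospholipase family gene, at 4.88, 5.86 and 4.6 cRPKM in E93RNAi+brRNAi against 0.55, 0.58 and 0.42 cRPKM in E93RNAi (log2 difference 3.47 ± 0.18, adjusted p = 2.93e-12). The control libraries of that time, at 0.69, 0.73 and 0.41 cRPKM, lay with E93RNAi. CG18213 was at 2.07, 2.67 and 1.76 cRPKM in E93RNAi+brRNAi against 0.47, 0.42 and 0.35 cRPKM in E93RNAi (2.57 ± 0.22, adjusted p = 6.28e-09). CG15213 was at 111.43, 145.31 and 104.57 cRPKM against 29.38, 33.57 and 25.23 cRPKM (2.21 ± 0.17, adjusted p = 1.01e-09). CG9747, the desaturase family gene, was at 22.33, 31.87 and 18.44 cRPKM against 6.03, 8.52 and 5.11 cRPKM (2.06 ± 0.16, adjusted p = 1.85e-09). The naming rule took only genes whose libraries did not overlap in this comparison, so that the separation of the 2 genotypes in these 4 was set by the choice. The E93RNAi+brRNAi libraries of these 4 genes were above control as well.

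The named genes furthest below E93RNAi in E93RNAi+brRNAi at 44 h were CG8927, CG14598, CG3679, CG13516 and CG14915. CG8927 had a log2 difference of -2.01 ± 0.13 (adjusted p = 4.77e-11). CG14598 was at 2.88, 2.52 and 2.62 cRPKM in E93RNAi+brRNAi against 9.78, 10.29 and 7.64 cRPKM in E93RNAi (-1.61 ± 0.18, adjusted p = 3.32e-07), with control at 1.16, 1.32 and 0.79 cRPKM. CG13516 was at 4.08, 3.75 and 3.25 cRPKM against 9.87, 8.62 and 8.43 cRPKM, with control at 1.13, 1.12 and 1.21 cRPKM. Each of these 3 genes stood between E93RNAi and control in E93RNAi+brRNAi, without reaching control. CG3679 was at 1.97, 2.11 and 1.64 cRPKM in E93RNAi+brRNAi against 5.25, 5.04 and 5.44 cRPKM in E93RNAi, and 2 of the 3 E93RNAi+brRNAi libraries lay within the control range of 1.89 to 2.26 cRPKM. CG14915 was at 4.57, 5.42 and 4.87 cRPKM against 11.23, 12.88 and 10.43 cRPKM in E93RNAi.

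At 24 h, 10 genes were higher in E93RNAi+brRNAi than in E93RNAi and 19 lower, against 20.2% and 21.1% of all genes. The share that was higher was close to that of all genes, and the share that was lower was above it. The highest was CG15213, at 2735.92, 2305.76 and 2561.69 cRPKM in E93RNAi+brRNAi against 1247.95, 1195.77 and 800.89 cRPKM in E93RNAi (log2 difference 1.27 ± 0.13, adjusted p = 1.46e-07). Its control libraries were higher than both. CG34247 was at 3191.18, 2862.08 and 3164.66 cRPKM against 1642.4, 1685.15 and 1056.45 cRPKM (1.11 ± 0.12, adjusted p = 4.07e-07), with E93RNAi the lowest of the 3 genotypes. The furthest the other way were CG14598, with the values above (-1.85 ± 0.11, adjusted p = 4.77e-11), and CG15212, at 185.81, 143.07 and 121.4 cRPKM in E93RNAi+brRNAi against 514.62, 507.07 and 396.97 cRPKM in E93RNAi (-1.62 ± 0.11, adjusted p = 9.35e-10). The third E93RNAi library at 24 h, which stood apart, was the lowest of its group in CG15213, CG34247 and CG15212. Without it, 10 genes were higher and 18 lower.

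**Figure D4:**
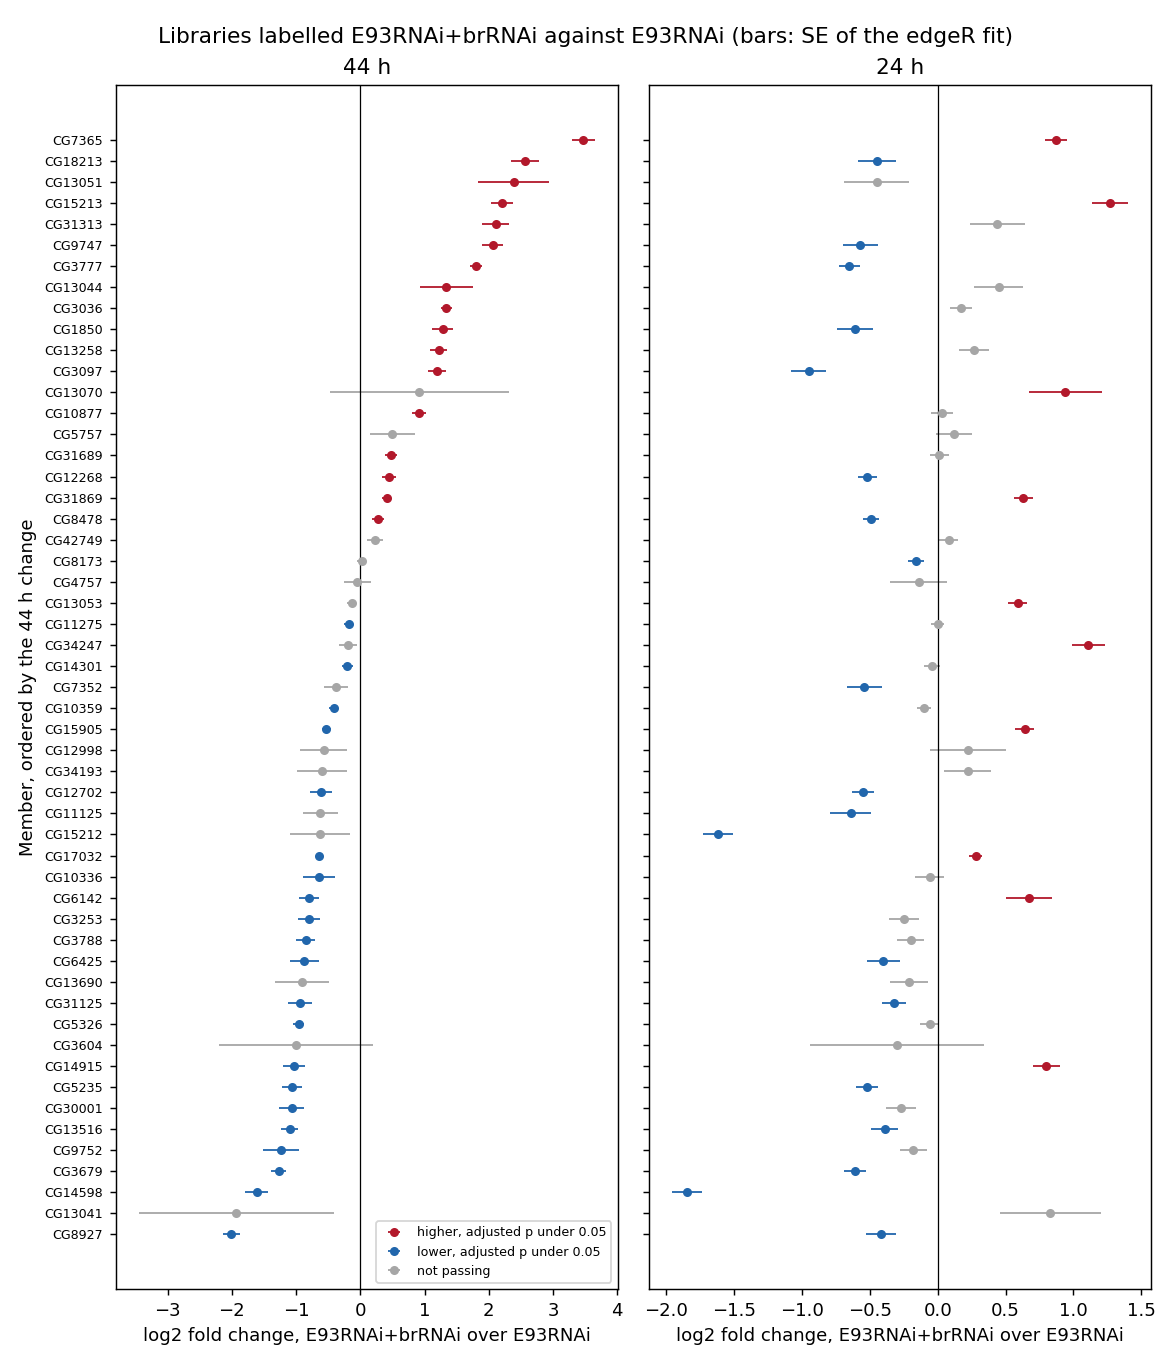
Log2 difference between E93RNAi+brRNAi and E93RNAi for each of the 53 genes at 44 h (left) and at 24 h (right). Bars give the approximate SE worked back from the edgeR F test, and colours give the side called. The 44 h values run from -2.01 for CG8927 to 3.47 for CG7365, and the 24 h values from -1.85 for CG14598 to 1.27 for CG15213.

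The difference between E93RNAi+brRNAi and E93RNAi changed with time in 32 of the 53 genes: the log2 difference was more positive at 44 h than at 24 h in 15 and more negative in 17, against 17.5% and 16.0% of all genes. Eip93F itself had a value of -0.61 ± 0.09 here (adjusted p = 1.27e-05, edgeR). Neither br (-0.32 ± 0.21, adjusted p = 0.247, edgeR) nor Dcr-2 (-0.09 ± 0.16, adjusted p = 0.701, edgeR) passed this test. The parts of Eip93F, br and Dcr-2 cannot be told apart. CG18213 (3.02 ± 0.26), CG13051 (2.83 ± 0.6) and CG9747 (2.63 ± 0.21) had the highest log2 values of this difference of differences among the genes that passed the test. CG9747 changed sides: at 24 h it was lower in E93RNAi+brRNAi, at 410.01, 358.63 and 343.66 cRPKM against 552.54, 562.44 and 579.23 cRPKM in E93RNAi, and at 44 h it was higher, as above. CG14915 (-1.84 ± 0.19), CG8927 (-1.59 ± 0.17) and CG6142 (-1.47 ± 0.23) had the lowest among those that passed it. CG13041, with -2.77 ± 1.79, did not pass (adjusted p = 0.293, edgeR). CG6142 was higher in E93RNAi+brRNAi at 24 h, at 3.05, 2.38 and 2.74 cRPKM against 1.7, 2.0 and 1.59 cRPKM in E93RNAi, and lower at 44 h.

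Among members that the naming rule did not take, and that were chosen after their values were seen, 3 belong by homology to DNA replication and nucleotide supply. CG5757, a thymidylate kinase, was at 0.78, 0.95 and 0.97 cRPKM in E93RNAi+brRNAi and 0.46, 0.67 and 1.07 cRPKM in E93RNAi at 44 h, against 0.36, 0.16 and 0.55 cRPKM in control. CG10336, related to the replication fork protein Tipin, was at 0.52, 0.82 and 1.0 cRPKM and at 1.15, 1.49 and 1.56 cRPKM, against 0.56, 0.63 and 0.53 cRPKM in control. CG13690, a catalytic subunit of a ribonuclease H, was at 0.38, 0.39 and 0.21 cRPKM and at 0.52, 1.09 and 0.39 cRPKM, against 0.09, 0.16 and 0.26 cRPKM. The 44 h control values rest on few reads, with 18 counts in CG5757, 41 in CG10336 and 12 in CG13690 summed over the control libraries. All 3 fell with time in both RNAi genotypes, with log2 changes of -4.51 to -3.52 in E93RNAi+brRNAi and -3.9 to -3.0 in E93RNAi. For comparison, of 36 listed cell cycle genes at 5 cRPKM or more in control at 24 h, 26 passed the ratio of 6, against 3.4% of all genes at that level. All 37 listed genes tested were lower at 44 h than at 24 h in each RNAi genotype. The shares of all genes were 38.0% in E93RNAi+brRNAi and 36.4% in E93RNAi.

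Also chosen after their values were seen were CG5326 and CG12268. CG5326, a fatty acid elongase family gene, was at 14.19, 11.7 and 11.59 cRPKM in E93RNAi+brRNAi and 28.45, 27.11 and 27.11 cRPKM in E93RNAi at 44 h, against 5.88, 5.14 and 4.87 cRPKM in control. It was lower in E93RNAi+brRNAi than in E93RNAi (log2 difference -0.96 ± 0.08, adjusted p = 2.34e-09). CG12268, a fatty acyl-CoA reductase family gene, was at 3.79, 3.77 and 3.81 cRPKM against 2.91, 3.41 and 3.12 cRPKM in E93RNAi, with control at 1.58, 2.12 and 1.62 cRPKM, and was higher in E93RNAi+brRNAi than in E93RNAi (0.45 ± 0.11, adjusted p = 0.00183). Both genes fell with time in each RNAi genotype, with log2 changes of -1.82 and -0.92 for CG5326 and of -1.57 and -2.53 for CG12268 in E93RNAi+brRNAi and E93RNAi, and both were above control at 44 h.

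In the genome the 53 genes lay on 3R (15), 3L (12), 2R (11), 2L (8) and X (7). With gaps of at most 100 kb between neighbours, 2 runs formed. The longer covered 60.5 kb of 3L, from 16259037 to 16319526 in dm6 (coordinates of the Ensembl annotation), and held CG13053, CG34247, CG13070, CG13051, CG13044 and CG13041. Of 29 protein-coding genes in that span, 13 were at 5 cRPKM or more in control at 24 h, and these 6 were the only ones to pass the ratio. The shorter, from 5131545 to 5133220 on 3L, held CG15212 on the plus strand and CG15213 on the minus strand.

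Neighbours in the run differed in level and in response. CG13053 and CG34247 were among the most abundant of the 53 genes in control at 24 h, while CG13041 had 4.81 to 5.41 cRPKM and CG13070 had 4.65 to 5.8 cRPKM there. At 24 h, CG13053 was at 2407.38, 2183.41 and 2552.14 cRPKM in E93RNAi+brRNAi against 1700.28, 1765.25 and 1411.94 cRPKM in E93RNAi, with no overlap (log2 difference 0.59 ± 0.07, adjusted p = 1.03e-06). CG13051 had overlapping RNAi libraries, at 8.31, 5.5 and 13.32 cRPKM in E93RNAi+brRNAi and 14.03, 11.28 and 12.79 cRPKM in E93RNAi, against 9.58, 7.54 and 7.34 cRPKM in control. The pair also parted: at 24 h CG15212 was higher in E93RNAi than in control (log2 difference 1.08 ± 0.11) and CG15213 was lower (-2.19 ± 0.13). Genes that lie together can be similar copies, and reads of near-identical copies cannot be taken as separated.

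**Figure D5:**
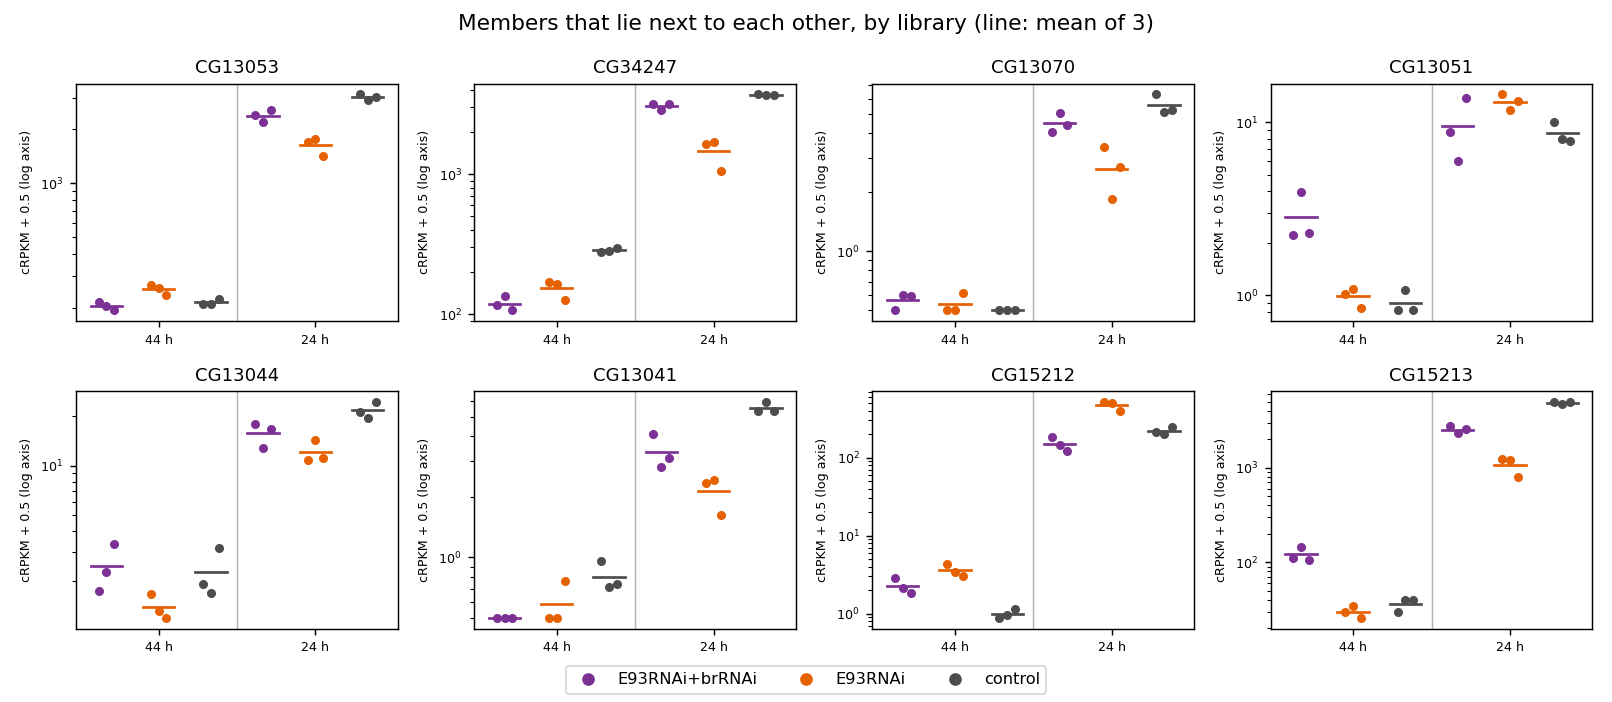
Level of the 6 genes of the longer run and the 2 of the shorter by library (cRPKM + 0.5, log axis, line at the mean of 3), 44 h left and 24 h right, with E93RNAi+brRNAi, E93RNAi and control from left to right. At 24 h CG15212 has its highest libraries in E93RNAi, and CG15213 its lowest.

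The genes had a shorter effective length than the tested genes as a whole. The effective length implied by counts and cRPKM ran from 218 to 3720 bases with a median of 1414, against 1823 over all genes tested. By it, 20.8% were under 600 bases against 7.1% of all. This is the divisor used in cRPKM, not a measured length of gene or transcript, and those lengths were not compared. An exon of 20 of the 53 genes overlapped another annotated gene, 17 on the opposite strand only. Whether counting used the strand is not given in the sources used here, so that these 20 (among them CG3036, CG3777, CG8927, CG31313 and CG14915) cannot be taken as free of a neighbour's reads. In CG13516, CG3679 and CG13041 an overlap was on the same strand, where counting by strand would not separate the reads.

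The 53 genes can be set beside 169 genes of other symbols that passed the same thresholds. The ratio was at least 6 in 43.4% of the 53 genes and 60.4% of the 169 within E93RNAi+brRNAi, and in 41.5% and 50.3% within E93RNAi. It was under 2 in 15.1% of the 53 and 7.7% of the 169 within E93RNAi+brRNAi, and in 13.2% and 3.6% within E93RNAi. Of the 168 other genes tested, 67 were higher and 3 lower in E93RNAi+brRNAi than in control at 44 h. In E93RNAi, 126 were higher and 2 lower. At 24 h, 152 were lower and 2 higher in E93RNAi+brRNAi than in control, and 101 lower and 12 higher in E93RNAi. Between E93RNAi+brRNAi and E93RNAi at 44 h, 23 were higher and 88 lower. In the same comparison at 24 h, 12 were higher and 99 lower, so that the lean to lower values was not particular to the 53 genes. The all-gene shares are those given above. These shares and counts were not tested against those of the 53 genes.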

How the data were processed

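The deposited values were used as the authors made them: whole-number read counts per gene, not normalized, and cRPKM. In cRPKM, a form of RPKM, the deposited count is scaled by library total and by an effective length for each gene. That length need not equal the length of the gene or its transcript. The submitters' processing notes name dm6; the sources used here give no aligner, counter or strand setting. Reads were single-end of 51 bases, per the labels' protocols.

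Counts of all 18 libraries were fitted with edgeR 4.0.16 in R 4.3.3 (TMM, filterByExpr, 1 mean per group, quasi-likelihood F test), and p-values were adjusted by Benjamini-Hochberg over 9672 genes, with 0.05 as the threshold. Log2 changes are ± SE, an approximate value worked back from the test as the absolute log2 change divided by the square root of F. For genes with few counts it is only a rough guide. DESeq2 1.42.0 served as an alternative, as did other scalings, filters, a replicate block and leaving out each library.

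The 53 genes, the lists and the rule for named genes were chosen with earlier results of these data known. The rule took the 8 highest in control at 24 h, up to 5 per direction in each comparison of genotypes, the 4 smallest and 4 largest falls in each RNAi genotype, 3 per direction for the change between times, the genes beside each threshold, and the genes in runs. Symbols came from Ensembl 115, except br (FBgn0000210), taken as br on background knowledge. Protein and promoter sequences were not analysed here.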

Additional observations from a re-analysis of the deposited data

Results flagged for a closer look

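The difference between libraries labelled E93RNAi+brRNAi and E93RNAi was not the same at 44 h as at 24 h by an interaction test (edgeR, adjusted p under 0.05) in 32 of the 53 genes. As the log2 difference at 44 h minus that at 24 h, the values were 3.02 in CG18213, 2.83 in CG13051 and 2.63 in CG9747 on the positive side, and -1.84 in CG14915, -1.59 in CG8927 and -1.47 in CG6142 on the negative side, each the highest or lowest among the genes that passed. CG13051 rests on few reads, since its 44 h level was 0.35 to 0.59 cRPKM in E93RNAi. Dcr-2 and Eip93F also differed between these genotypes at both times, and their part and that of br cannot be told apart.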

How the results depend on the processing

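All 495 alternative values of the counts stayed within 1.5 times the value reported. The number of genes chosen was 69 with 0.1 added to each mean, 43 with 1 added, 47 after division by the TMM factor, and 52 to 57 without single control libraries. Scaling by library totals, chosen after seeing the data, gave a median of all genes (log2) of -0.27 for time within E93RNAi+brRNAi, against 0.0 as reported, of -0.2 against -0.01 for E93RNAi+brRNAi over E93RNAi at 44 h, and of 0.12 against 0.01 for E93RNAi over control at 44 h. Under it, 16 genes were higher and 26 lower in E93RNAi+brRNAi than in E93RNAi at 44 h. The median of all genes moved down in that comparison too, and shares of all genes called under this scaling are not given here. The difference of these counts from those reported therefore cannot be read as particular to the chosen genes.

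Without the third E93RNAi library at 24 h, 37 genes were lower and 4 higher in E93RNAi than in control at 24 h. Without the third E93RNAi+brRNAi library at 44 h, 16 were higher and 21 lower in E93RNAi+brRNAi than in E93RNAi at 44 h. Leaving out single libraries gave 16 to 17 higher and 18 to 22 lower in that comparison, and 10 to 13 higher and 18 to 22 lower at 24 h.

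Of 1449 alternative values for 58 results on single genes, 4 lost their call and none changed direction. These were the higher levels of CG13516 and CG3679 in E93RNAi than in control at 24 h, each lost without 1 control library and without 1 E93RNAi library. The 58 results were chosen among the largest changes past the threshold, which favours a kept call and direction. Some were comparisons with control, which share the libraries that chose the genes.

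The replicate numbers did not follow the deviations that libraries shared: of 45 pairs of groups and numbers, 11 had a correlation of deviations over 0.1. For 90 pairings of a library with another group, the best correlated library carried the same number in 26. Libraries of different numbers also correlated, up to 0.51 for the third E93RNAi at 24 h with the second E93RNAi+brRNAi at 44 h. The labels do not tell what such libraries shared. With a replicate block, 17 genes were higher and 21 lower in E93RNAi+brRNAi than in E93RNAi at 44 h, and 10 were higher and 19 lower at 24 h. Against control at 44 h the block gave 32 higher and 2 lower in E93RNAi+brRNAi and 35 higher and 4 lower in E93RNAi. At low counts depth limits the comparison, as in CG13041, CG13070, CG3604, CG13690 and CG5757 at 44 h.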
